A study of Mus musculus with 7 samples.

Results

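The STAT genes examined here were Stat2, Stat3, Stat4, Stat5a, Stat5b and Stat6, and their members in the data were the accessible chromatin regions that overlapped the body of one of these genes or the 10 kb on either side of it in the GENCODE annotation of GRCm38/mm10. A region within reach of more than 1 gene was counted for the nearer one. This gave 127 of the 113820 regions of the table, with 6 at Stat2, 31 at Stat3, 38 at Stat4, 12 at Stat5a, 27 at Stat5b and 13 at Stat6. All 127 entered the tests, since no filter on low values was applied. The other member of the family is not analysed here.

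STAT proteins are transcription factors that wait in the cytoplasm, are phosphorylated by Janus kinases bound to cytokine receptors, pair up, and move to the nucleus to bind DNA. In CD4+ T cells the individual STATs couple particular cytokines to particular fates. STAT4 acts downstream of IL-12 in Th1 cells, STAT6 downstream of IL-4 in Th2 cells, STAT3 downstream of IL-6 and IL-21 in Tfh and Th17 cells, STAT5A and STAT5B downstream of IL-2 and IL-7, and STAT2 downstream of type I interferon.

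Chromatin accessibility was measured by ATAC-seq, in which a transposase inserts adapters into open DNA, in CD4+ T cells of C57BL/6 mice infected 8 days earlier with 500 larvae of the helminth N. brasiliensis. Lymph node (LN) IL-4+ cells (n = 2) were GFP+ cells from the mediastinal lymph nodes of IL-4-4get GFP reporter mice, lung IL-4+ cells (n = 3) were GFP+ cells from the lung of mice of that reporter strain, and lung IFNγ+ cells (n = 2) were YFP+ cells from the lung of IFN-gamma-Great YFP reporter mice. Each library was made from 50000 sorted cells, all mice were infected, and the study describes a single experiment with 2 to 3 mice. The reporters mark cells competent to make the cytokine, the IFNγ+ population also differs from the others in its reporter strain, and an open region in fewer cells cannot be told apart from a less open region in each cell.

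The libraries held between 14005923 and 91681969 insertions, as rebuilt from tied values, and the median region held between 53 and 176. Summed normalized insertions at Il4 were 107 to 134 in LN IL-4+, 119 to 172 in lung IL-4+ and 39.6 to 54.4 in lung IFNγ+ libraries, and those at Ifng were 12.5 to 16.6, 16.6 to 30.8 and 71.2 to 72.0. Start regions of all 4 T cell markers (Cd3e, Cd4, Cd2, Lck) were present in every library with 8.23 to 27.9 insertions per kb. There was no region over the start of any of the 3 B cell, 2 NK cell, 2 epithelial or 1 erythroid marker, nor of Cd8a, and the start of Cd8b1 had 2.95 to 7.31 insertions per kb. Of 4 myeloid markers, Itgam and Itgax, whose products the sort selected against, had a start region and Lyz2 and Csf1r had none. Their summed density was 2.85 to 6.27 in LN IL-4+, 3.91 to 8.18 in lung IL-4+ and 11.1 to 14.8 in lung IFNγ+ libraries, and its part in the differences of lung IFNγ+ cells was not tested. The libraries also fell into 2 classes by the spread of insertions over regions, narrow in replicate 1 of LN IL-4+ with replicates 2 and 3 of lung IL-4+, and wide in the other 4, which include both lung IFNγ+ libraries. The narrow libraries held 14005923 to 23564412 rebuilt insertions and the wide ones 39068158 to 91681969, so that class and depth cannot be told apart.

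The differences called at the STAT genes were at 4 regions in introns, whose sequences are shown because every such call rests on them. Lung IFNγ+ cells were called above LN IL-4+ cells at 2 introns of Stat4, lung IL-4+ cells at 1 of these, and accessibility was called higher in LN IL-4+ than lung IFNγ+ cells at an intron of Stat3 and an intron of Stat5b. The sequences are of GRCm38, plus strand, 5′ to 3′, and each is the 300-base window of its region with the most motif matches. Capitals mark matches on either strand to TTCNNNGAA, the palindrome with the 3-base spacer that most STAT dimers bind, to the same palindrome with the 4-base spacer that STAT6 also binds, and to the core letters AGATAA for factors like GATA3, AGGTGTGA for T-box factors and AACCACA for Runx factors. The windows are chr1:52034614-52034913 and chr1:52052621-52052920 for Stat4, chr11:100891775-100892074 for Stat3 and chr11:100831365-100831664 for Stat5b.
Stat4 intron, 47.8 kb: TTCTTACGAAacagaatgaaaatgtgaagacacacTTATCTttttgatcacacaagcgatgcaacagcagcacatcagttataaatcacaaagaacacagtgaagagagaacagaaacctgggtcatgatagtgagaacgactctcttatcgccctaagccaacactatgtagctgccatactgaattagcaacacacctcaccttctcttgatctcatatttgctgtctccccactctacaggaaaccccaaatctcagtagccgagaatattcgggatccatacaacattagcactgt
Stat4 intron, 65.8 kb: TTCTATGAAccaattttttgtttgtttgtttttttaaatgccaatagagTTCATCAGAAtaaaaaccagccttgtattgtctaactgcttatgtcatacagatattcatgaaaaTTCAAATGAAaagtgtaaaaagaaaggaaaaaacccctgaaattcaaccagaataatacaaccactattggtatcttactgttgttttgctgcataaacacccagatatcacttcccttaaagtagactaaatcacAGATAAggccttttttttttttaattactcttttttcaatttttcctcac
Stat3 intron, 47.6 kb: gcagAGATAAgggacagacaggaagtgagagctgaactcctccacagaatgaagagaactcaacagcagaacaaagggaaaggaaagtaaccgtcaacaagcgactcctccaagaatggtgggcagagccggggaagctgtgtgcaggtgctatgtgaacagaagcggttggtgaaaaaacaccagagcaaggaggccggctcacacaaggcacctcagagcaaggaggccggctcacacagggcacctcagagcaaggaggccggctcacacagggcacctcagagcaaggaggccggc
Stat5b intron, 19.2 kb: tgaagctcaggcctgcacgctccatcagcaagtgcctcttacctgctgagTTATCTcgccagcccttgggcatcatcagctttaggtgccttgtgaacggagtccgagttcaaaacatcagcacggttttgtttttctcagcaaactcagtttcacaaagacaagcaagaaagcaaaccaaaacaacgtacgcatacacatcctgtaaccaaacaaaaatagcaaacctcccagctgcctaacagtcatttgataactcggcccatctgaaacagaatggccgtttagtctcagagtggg

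The distance in each name runs from the start of the gene annotated in GENCODE to the center of the region. The whole Stat4 region at 65.8 kb held 2 matches to the palindrome with the 3-base spacer and 2 to that with the 4-base spacer, of which 1 and 2 are in the window. The Stat4 region at 47.8 kb held 0 and 2, with 1 of the latter in the window, and the regions of Stat3 and Stat5b held neither. The 3-base spacer was found in 25 of the 127 regions (19.7%) and in 21.3% of all regions within 10% of their length, and the 4-base spacer in 27 (21.3%) and 18.8%. AGATAA was found in 45 (35.4% against 31.3%), AGGTGTGA in 7 (5.51% against 4.13%) and AACCACA in 35 (27.6% against 21.6%). A match describes letters only and was not tested as a binding site.

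Of the 127 regions, 13 lay over an annotated transcription start, 67 in introns, 26 in exons and 21 outside the genes, and together they covered 103.915 kb. Another gene was also overlapped by 24 of them, and their signal cannot be assigned to either gene. They include 14 of the 38 Stat4 regions, all over Gm28177. The others include regions over Nab2 and Nemp1 downstream of Stat6 and over Il23a downstream of Stat2. A mean density of at least 5 normalized insertions per kb in at least 1 population was reached by 72 regions (56.7%), against 58.2% of all regions, and 39 reached it in all 3 populations. Stat4, the longest of these genes with a body of 120.042 kb, had 17 such regions of 38, and Stat2, with a body of 22.291 kb, had 5 of 6.

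The regions over the annotated starts of Stat2, Stat3, Stat5a, Stat5b and Stat6 had a mean density of at least 5 insertions per kb in all 3 populations, and none was called different. Calls needed an adjusted p below 0.05 by limma, adjusted over all 113820 regions, and a fold change of at least 3. Values are log2 normalized insertions per kb throughout, with replicates in order of their number. At the start of Stat3 (chr11:100939339-100940205), the strongest of these regions in LN IL-4+ cells, the values were 7.05 and 6.66 in LN IL-4+, 6.81, 6.84 and 6.68 in lung IL-4+, and 6.67 and 6.62 in lung IFNγ+ libraries. At the start of Stat2 (chr10:128270213-128270658) they were 6.50 and 6.64, then 6.56, 6.60 and 6.36, then 6.64 and 6.63. The LN IL-4+ libraries overlapped both lung populations at both starts, and the largest difference between populations was 0.21 (lung IFNγ+ minus LN IL-4+ at Stat3, -0.21, SE 0.16, limma adjusted p = 0.534).

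The 250 bases before the Stat2 start (chr10:128270248-128270497, GRCm38.p6, plus strand, RefSeq) are shown as those of a start that was open at a like level in every library, and hold 1 match to the 4-base spacer and 1 to AACCACA, again in capitals.
Stat2 promoter: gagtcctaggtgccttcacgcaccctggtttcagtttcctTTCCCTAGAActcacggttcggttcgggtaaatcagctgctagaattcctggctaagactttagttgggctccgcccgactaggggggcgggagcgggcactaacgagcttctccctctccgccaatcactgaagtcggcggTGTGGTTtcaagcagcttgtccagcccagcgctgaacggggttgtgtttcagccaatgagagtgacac

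Among 32851 promoters of this length, 5.85% held the 4-base spacer and 4.40% AACCACA, while 7.02% held the 3-base spacer, 9.99% AGATAA and 1.12% AGGTGTGA. The start of Stat6 (chr10:127641537-127644216) had values of 5.07 and 4.70 in LN IL-4+, 4.90, 5.12 and 5.14 in lung IL-4+, and 4.54 and 4.69 in lung IFNγ+ libraries. Both lung IFNγ+ libraries were the lowest of the 7, but lung IL-4+ exceeded lung IFNγ+ cells by only 0.44 (SE 0.18, limma adjusted p = 0.313). The start of Stat5a (chr11:100857720-100860642) had means of 4.17 ± 0.43 (SD, n = 2), 4.33 ± 0.31 (SD, n = 3) and 4.07 ± 0.05 (SD, n = 2) in LN IL-4+, then lung IL-4+, then lung IFNγ+ cells, and that of Stat5b (chr11:100846511-100850930) had 3.81 ± 0.58 (SD, n = 2), 3.63 ± 0.50 (SD, n = 3) and 3.06 ± 0.13 (SD, n = 2). At the Stat5b start the difference of lung IFNγ+ from LN IL-4+ cells was -0.75 (SE 0.37, limma adjusted p = 0.308).

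No region lay over the start of the Stat4 gene annotated in GENCODE. The 250 bases before its RefSeq start (chr1:52007990-52008239) lay within a region centered 21.9 kb downstream (chr1:52007679-52010491). That region, over a start inside the GENCODE gene, had values of 3.99 and 3.51 in LN IL-4+, 3.66, 4.05 and 4.50 in lung IL-4+, and 3.54 and 3.65 in lung IFNγ+ libraries. Lung IL-4+ libraries were above the lung IFNγ+ libraries there, by 0.47 (SE 0.28, limma adjusted p = 0.430), and the LN IL-4+ libraries overlapped both.

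**Figure D1:**
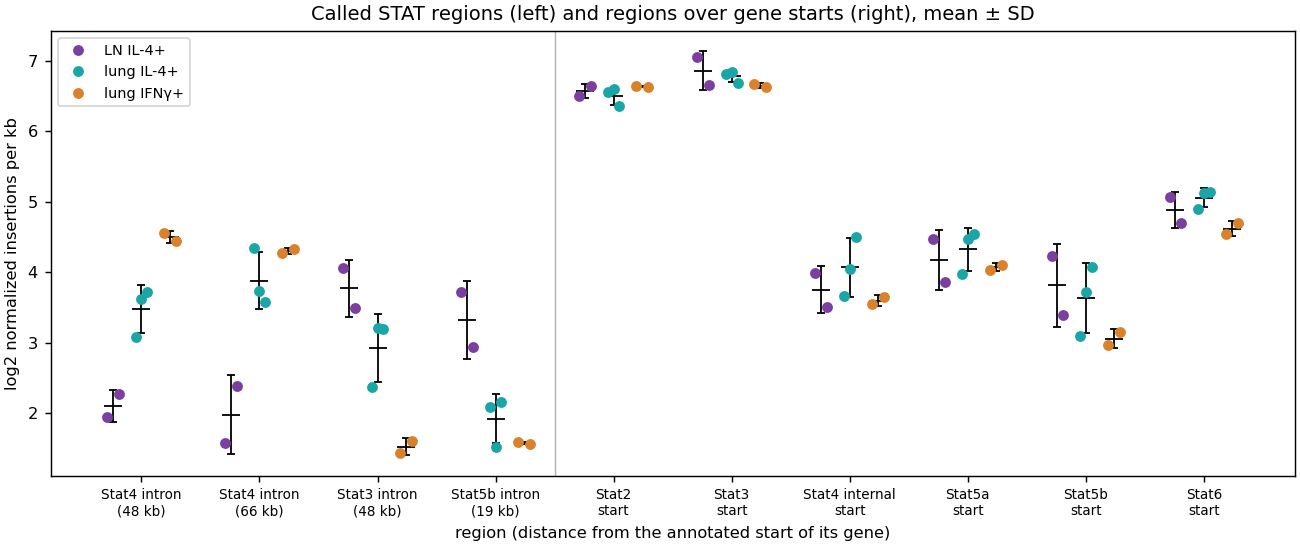
Log2 normalized insertions per kb (vertical axis) at the 4 called regions, left of the line, and at the regions over gene starts, right of it, with 1 point per library, colored by population, and bars for mean ± SD. The 2 Stat4 introns are lowest in LN IL-4+ cells, the Stat3 and Stat5b introns are lowest or near lowest in lung IFNγ+ cells, and no start region was called different.

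At both called Stat4 introns, LN IL-4+ cells had the lowest values. The region at 47.8 kb (chr1:52034134-52035795) had values of 1.94 and 2.27 in LN IL-4+, 3.09, 3.61 and 3.73 in lung IL-4+, and 4.55 and 4.44 in lung IFNγ+ libraries. The 3 populations were ordered without overlap, with LN IL-4+ lowest and lung IFNγ+ highest, an order found at 2 of the 38 Stat4 regions (5.26%), at no other STAT region and at 2.54% of all regions. Lung IFNγ+ exceeded LN IL-4+ cells by 2.39 (SE 0.29, limma adjusted p = 0.00312), a call. Lung IL-4+ exceeded LN IL-4+ cells by 1.37 (SE 0.27, limma adjusted p = 0.0250), which passed the test but was under 3-fold, and lung IL-4+ minus lung IFNγ+ cells was -1.02 (SE 0.27, limma adjusted p = 0.133). Within the wide class, lung IFNγ+ minus LN IL-4+ was 2.23, and lung IL-4+ minus LN IL-4+ was 0.82 in the wide and 1.73 in the narrow class. Each within-class difference from LN IL-4+, here and below, rests on 1 LN IL-4+ library and was not tested. That library was set against 2 lung IFNγ+ or 1 lung IL-4+ library in the wide class, and against 2 lung IL-4+ libraries in the narrow class.

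The Stat4 region at 65.8 kb (chr1:52052578-52053417) had values of 1.58 and 2.38 in LN IL-4+, 4.34, 3.73 and 3.57 in lung IL-4+, and 4.28 and 4.33 in lung IFNγ+ libraries. All 5 lung libraries were above both LN libraries, and the lung populations overlapped. It was the only STAT region called in 2 comparisons, with lung IL-4+ above LN IL-4+ by 1.90 (SE 0.31, limma adjusted p = 0.0132) and lung IFNγ+ above LN IL-4+ by 2.32 (SE 0.34, limma adjusted p = 0.00608), which share the LN IL-4+ libraries. Lung IL-4+ minus LN IL-4+ was 1.96 within the wide and 2.07 within the narrow class, and lung IFNγ+ minus LN IL-4+ was 1.92 within the wide class. Rebuilt insertions in this region ran from 88 in LN IL-4+ replicate 1 to 1810 in lung IFNγ+ replicate 2. Without LN IL-4+ replicate 1 the lung IL-4+ difference passed the test (limma adjusted p = 0.0452) but was under 3-fold, and without lung IL-4+ replicate 2 it was 1.97 (limma adjusted p = 0.0702). Without lung IFNγ+ replicate 1 or 2, which leaves 1 library assumed to vary like the others, the lung IFNγ+ differences of both Stat4 introns had limma adjusted p between 0.0574 and 0.0940.

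Other regions of the gene were compared in the same way. All 5 lung libraries were above both LN IL-4+ libraries at 14 of 38 Stat4 regions (36.8%), against 9.42% of all regions, and below both at 1 (2.63%), against 10.1%. Lung IFNγ+ libraries were above LN IL-4+ libraries without overlap at 24 of 38 (63.2%), against 26.5% of all regions, and lung IL-4+ libraries at 14 (36.8%), against 13.6%. An unadjusted p below 0.05 was found at 9 regions for lung IFNγ+ above LN IL-4+ (23.7% against 10.7% of all regions) and at 7 for lung IL-4+ above LN IL-4+ (18.4% against 8.82%). Neighboring regions of 1 gene share the same libraries and are not independent of each other. Of the 38, 14 also overlapped Gm28177, so that these counts cannot be assigned to Stat4 alone. The called introns at 47.8 and 65.8 kb overlapped no other gene.

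**Figure D2:**
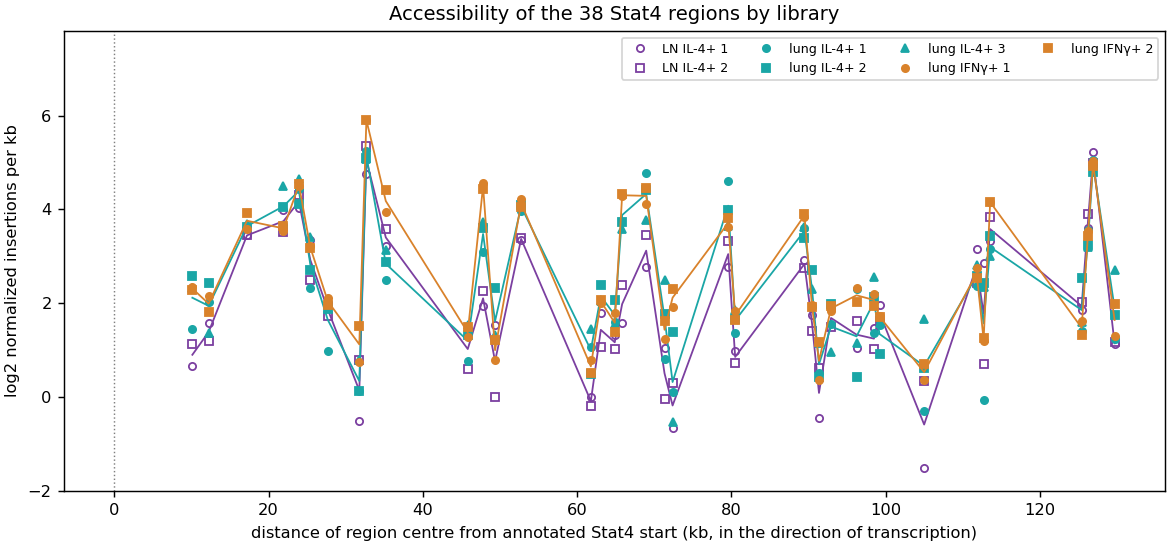
Log2 normalized insertions per kb (vertical axis) of the 38 Stat4 regions by distance in kb from the annotated start (horizontal axis, dotted line at 0), with 1 symbol per library and a line for each population mean. Lung libraries lie above LN IL-4+ libraries at many regions, widely so at 47.8 and 65.8 kb. There is no region at the start annotated in GENCODE, while the RefSeq start is in the region at 21.9 kb.

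The median difference over the 38 Stat4 regions was 0.53 for lung IL-4+ minus LN IL-4+, 0.61 for lung IFNγ+ minus LN IL-4+ and -0.09 for lung IL-4+ minus lung IFNγ+ cells, beside -0.03, -0.03 and -0.01 over all regions. These medians include the 14 regions that also overlapped Gm28177. The most accessible Stat4 region (chr1:52019606-52020065, intron, 32.7 kb) had values of 4.75 and 5.35 in LN IL-4+, 5.24, 5.10 and 5.08 in lung IL-4+, and 5.91 and 5.90 in lung IFNγ+ libraries. Lung IFNγ+ libraries were above all others there, by 0.86 over LN IL-4+ (SE 0.21, limma adjusted p = 0.0506) and 0.77 over lung IL-4+ cells (lung IL-4+ minus lung IFNγ+ -0.77, SE 0.19, limma adjusted p = 0.117).

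Other Stat4 regions came near a call. A further intron region (chr1:52022100-52022608, 35.2 kb) had values of 3.22 and 3.58 in LN IL-4+, 2.49, 2.89 and 3.14 in lung IL-4+, and 3.94 and 4.42 in lung IFNγ+ libraries. Here lung IL-4+ was the lowest population without overlap, and lung IL-4+ minus lung IFNγ+ was -1.34 (SE 0.28, limma adjusted p = 0.0697). The intron at 69.0 kb (chr1:52055777-52056456) had values of 2.78 and 3.46 in LN IL-4+, 4.78, 4.42 and 3.78 in lung IL-4+, and 4.11 and 4.46 in lung IFNγ+ libraries, with all lung libraries above both LN libraries and lung IL-4+ above LN IL-4+ by 1.21 (SE 0.32, limma adjusted p = 0.0744). The coding exon at 89.5 kb (chr1:52076339-52076929) was ordered without overlap from LN IL-4+ (2.92 and 2.75) through lung IL-4+ (3.60, 3.40 and 3.63) to lung IFNγ+ (3.84 and 3.90), and lung IFNγ+ exceeded LN IL-4+ cells by 1.03 (SE 0.25, limma adjusted p = 0.0437), under 3-fold.

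The intron of Stat3 at 47.6 kb (chr11:100891146-100892703) had the reverse order. Its values were 4.05 and 3.49 in LN IL-4+, 2.37, 3.21 and 3.20 in lung IL-4+, and 1.44 and 1.61 in lung IFNγ+ libraries. LN IL-4+ was highest and lung IFNγ+ lowest without overlap, an order found at 1 of the 31 Stat3 regions (3.23%), at no other STAT region and at 1.69% of all regions. Lung IFNγ+ minus LN IL-4+ was -2.25 (SE 0.38, limma adjusted p = 0.0106), a call, and -1.96 within the wide class. Lung IL-4+ exceeded lung IFNγ+ cells by 1.40 (SE 0.35, limma adjusted p = 0.111). Without LN IL-4+ replicate 1 the called difference was -1.96 with limma adjusted p = 0.0535, and without lung IFNγ+ replicate 1 or 2 the adjusted p was 0.137 or 0.0947.

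Many other Stat3 regions separated the libraries by spread class. All 3 narrow libraries were above all 4 wide libraries at 18 of its 31 regions (58.1%), against 14.8% of all regions, and the opposite was found at 0 (13.5% of all regions). Over the 127 STAT regions the counts were 49 (38.6%) and 2 (1.57%), with 7 of 12 at Stat5a, 7 of 13 at Stat6, 12 of 27 at Stat5b and 2 of 6 at Stat2, but 3 of 38 at Stat4 (7.89%). The narrow class held no lung IFNγ+ library, so that differences of that population can be compared within the wide class alone, as given for each call. With the class as a covariate in the fit, all 5 calls at STAT regions were made, with limma adjusted p from 7.5e-05 to 0.0249.

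Stat5b held the other region with a call against lung IFNγ+ cells. Its intron at 19.2 kb (chr11:100831224-100831805) had values of 3.72 and 2.94 in LN IL-4+, 2.08, 1.52 and 2.16 in lung IL-4+, and 1.59 and 1.57 in lung IFNγ+ libraries. Both LN libraries were above all 5 lung libraries, and the lung populations overlapped. Lung IFNγ+ minus LN IL-4+ was -1.75 (SE 0.41, limma adjusted p = 0.0424), a call, and -1.36 within the wide class. Lung IL-4+ minus LN IL-4+ was -1.40 (limma adjusted p = 0.0796), with -0.85 in the wide and -1.87 in the narrow class. This was the least firm of the calls, since it was lost without LN IL-4+ replicate 1 (-1.36, limma adjusted p = 0.218), without lung IL-4+ replicate 2 or 3 (limma adjusted p = 0.0588 and 0.0534) and without either lung IFNγ+ library (0.319 and 0.295).

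A pair of other Stat5b regions differed from LN IL-4+ in opposite directions in lung IFNγ+ cells. The intron at 32.1 kb (chr11:100818320-100819017) had values of 3.90 and 3.27 in LN IL-4+, 3.34, 3.19 and 3.53 in lung IL-4+, and 1.87 and 2.26 in lung IFNγ+ libraries, so that both IL-4+ populations overlapped and lung IFNγ+ lay below them, by -1.52 against LN IL-4+ (limma adjusted p = 0.0264, under 3-fold). The coding exon at 46.1 kb (chr11:100804338-100804915) had values of 3.64 and 3.07 in LN IL-4+, 3.53, 3.83 and 3.29 in lung IL-4+, and 4.64 and 4.52 in lung IFNγ+ libraries, with lung IFNγ+ above both and 1.23 above LN IL-4+ (limma adjusted p = 0.0363, under 3-fold). Against lung IL-4+ cells neither passed the test (lung IL-4+ minus lung IFNγ+ 1.29 and -1.04, limma adjusted p = 0.0847 and 0.108). LN IL-4+ was above lung IFNγ+ without overlap at 13 of 27 Stat5b regions (48.1%), against 27.2% of all regions. The most accessible Stat5b region (chr11:100845508-100846347, intron, 4.80 kb) had values of 4.74 and 4.57 in LN IL-4+ libraries. They were 3.87, 4.19 and 4.33 in lung IL-4+, and 4.32 and 4.70 in lung IFNγ+ libraries. Lung IL-4+ lay below LN IL-4+ there without overlap, by -0.52 (SE 0.21, limma adjusted p = 0.256).

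For STAT6, the IL-4 signal transducer, 6 of 13 regions were higher in lung IL-4+ than lung IFNγ+ cells without overlap (46.2%), against 19.4% of all regions, and 4 had an unadjusted p below 0.05 in that direction (30.8% against 6.36%), but 0 were called. Of its 13 regions, 6 also overlapped another gene. Those at 19.4, 20.8, 23.9 and 26.3 kb, over Nab2 or Nemp1, were among the 6 higher in lung IL-4+ cells. The regions at 19.4 and 20.8 kb were also among the 4 with an unadjusted p below 0.05. Stat6 regions with LN IL-4+ above lung IFNγ+ libraries without overlap numbered 5 (38.5%, against 27.2% of all regions), and 7 of 13 (53.8%, against 14.8% of all regions) had every narrow above every wide library. At Stat5a, 3 of 12 regions, and at Stat2, 1 of 6, had lung IL-4+ above lung IFNγ+ libraries without overlap, beside the same 19.4%, and neither gene had a call.

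Over all STAT regions the calls were about as frequent as over the genome. Lung IL-4+ was called above LN IL-4+ at 1 region (0.787% against 1.05% of all regions), and by adjusted p alone at 2 (1.57% against 1.88%). It was called below LN IL-4+ at 0 by limma and by voom on the rebuilt counts (0.695% of all regions by the former), with an unadjusted p below 0.05 at 5 (3.94% against 7.38%). Lung IFNγ+ was called above LN IL-4+ at 2 (1.57% against 2.17%) and below it at 2 (1.57% against 0.862%), and by adjusted p alone at 4 (3.15% against 3.03%) and 3 (2.36% against 1.16%). An unadjusted p below 0.05 with lung IFNγ+ below LN IL-4+ was found at 10 (7.87% against 7.81%). Between lung IL-4+ and lung IFNγ+ cells limma called 0 in either direction, where 0.108% of all regions were higher and 0.387% lower in lung IL-4+ (0.151% and 0.513% by adjusted p alone). Voom on the rebuilt counts called 1, higher in lung IL-4+ cells, a count to which these limma shares do not apply. With an unadjusted p below 0.05 by limma, the comparison of the lung populations had 11 STAT regions higher in lung IL-4+ (8.66% against 6.36%) and 7 higher in lung IFNγ+ cells (5.51% against 8.45%).

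**Figure D3:**
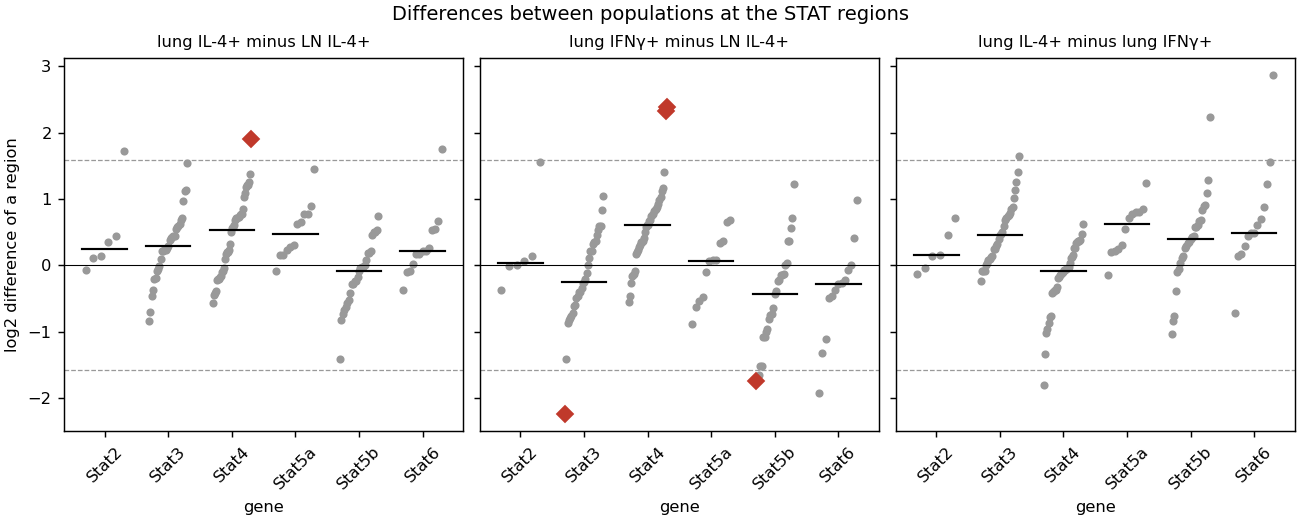
Log2 difference between 2 populations (vertical axis) of each of the 127 STAT regions by gene, in 3 panels of 1 comparison each, with bars for the median of a gene, dashed lines at a 3-fold difference and red diamonds for called regions. The diamonds are 1 Stat4 region in the first panel and 2 Stat4, 1 Stat3 and 1 Stat5b region in the second, while gray points past the lines did not pass the adjusted p.

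Summed over the regions of a gene, no difference between populations passed a test, and Stat4 was among the genes whose libraries did not overlap. Its summed normalized insertions were 233.5 and 223.3 in LN IL-4+, 282.6, 294.5 and 324.8 in lung IL-4+, and 332.5 and 337.3 in lung IFNγ+ libraries, which stood in that order without overlap. The Stat4 sums include 14 regions that also overlapped Gm28177, and cannot be assigned to Stat4 alone. The difference of mean log2 sums was 0.39 between lung IL-4+ and LN IL-4+ (two-sided exact permutation test, p = 0.1, the smallest that 3 against 2 libraries can give), 0.55 between lung IFNγ+ and LN IL-4+ (exact p = 0.33, the smallest for 2 against 2) and -0.16 for lung IL-4+ minus lung IFNγ+ (exact p = 0.2). Over the 18 comparisons of 6 genes the smallest Benjamini-Hochberg adjusted exact p was 0.667, so that no sum could pass. Median centring moved the last of these differences to -0.24.

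**Figure D4:**
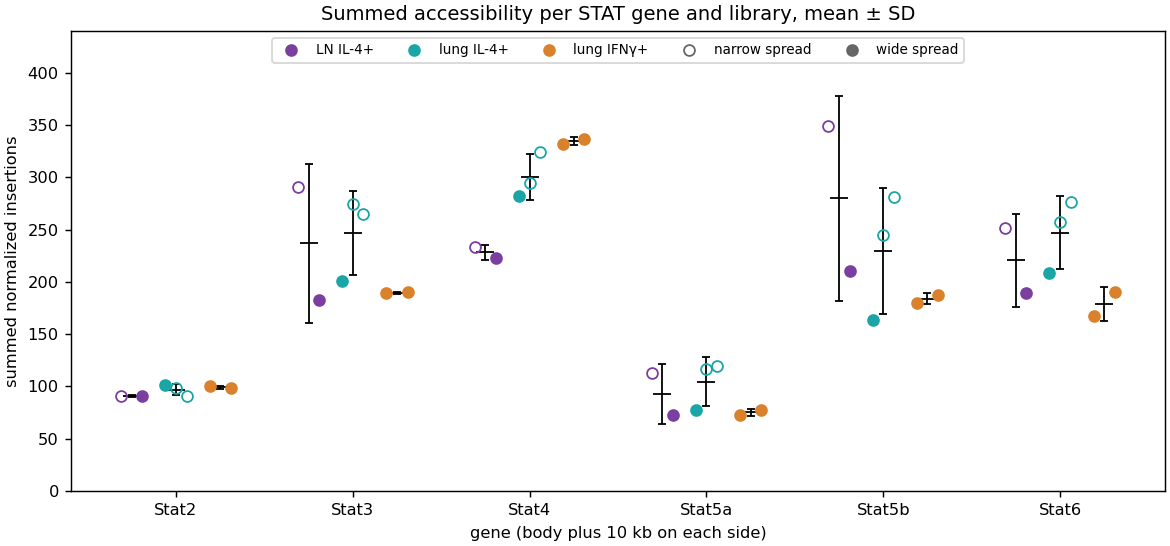
Summed normalized insertions over the regions of each STAT gene (vertical axis, from 0) for each library, with open points for narrow and filled points for wide libraries and bars for mean ± SD by population. The Stat4 sums are lowest in LN IL-4+ and highest in lung IFNγ+ libraries, whereas at Stat3, Stat5a, Stat5b and Stat6 the open points lie above the filled points of their own population.

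The sums of Stat3, Stat5a, Stat5b and Stat6 were higher in the narrow than in the wide libraries of the same population. At Stat5b they were 349.6 and 210.5 in LN IL-4+, 163.6, 245.0 and 281.0 in lung IL-4+, and 180.1 and 187.9 in lung IFNγ+ libraries, so that LN IL-4+ replicate 1 was far above replicate 2 and both lay above lung IFNγ+ (lung IFNγ+ minus LN IL-4+ -0.56, exact p = 0.33). At Stat3 they were 290.9 and 183.1, then 200.9, 274.4 and 265.1, then 189.1 and 190.1, and the 4 wide libraries were the lowest, with lung IL-4+ above lung IFNγ+ without overlap (difference 0.37, exact p = 0.2). At Stat5a they were 112.7 and 72.1, then 77.4, 117.0 and 119.0, then 72.4 and 77.4, with the lowest lung IL-4+ and the highest lung IFNγ+ library almost equal (difference 0.45, exact p = 0.2). At Stat6 the sums were 251.8 and 189.2, then 208.4, 257.0 and 276.3, then 167.5 and 190.3, with all lung IL-4+ libraries above both lung IFNγ+ libraries (difference 0.46, exact p = 0.2). The Stat6 sums include 6 regions that also overlapped another gene, and cannot be assigned to Stat6 alone. Among these was its longest region, of 4331 bases, over Nab2, Gm16229 and Nemp1.

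Stat2 varied least. Its sums were 90.3 and 91.1 in LN IL-4+, 101.7, 98.3 and 90.7 in lung IL-4+, and 100.1 and 98.1 in lung IFNγ+ libraries, with lung IFNγ+ above LN IL-4+ without overlap (difference 0.13, exact p = 0.33) and the narrow libraries not above the wide ones. Per kb of region it was the most accessible of the 6 genes, with a mean of 31.0, 33.1 and 33.8 insertions per kb in LN IL-4+, then lung IL-4+, then lung IFNγ+ cells. These values include a downstream region of 727 bases that also overlapped Pan2, with mean log2 values of 5.84, 5.95 and 5.98 in the same order. They therefore cannot be assigned to Stat2 alone. Stat6, of whose 13 regions 6 also overlapped another gene, followed with 16.9, 18.9 and 13.7. Stat4, of whose 38 regions 14 also overlapped another gene, had 7.76, 10.2 and 11.4. It was the lowest of the 6 in LN IL-4+ cells but above Stat3, Stat5a and Stat5b in lung IFNγ+ cells. Stat3 (10.7, 11.1 and 8.55), Stat5b (10.7, 8.80 and 7.04) and Stat5a (9.09, 10.3 and 7.36) lay between these in LN IL-4+ cells.

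The genes whose log2 sums ran most alike to those of Stat4 over the 7 libraries, among 9549 protein-coding genes with at least 5 regions, were Igsf8 (Pearson r = 0.989), Il17ra (0.982) and Il18r1 (0.980), the last a receptor subunit for IL-18. At Il18r1 the sums were 54.4 and 57.5 in LN IL-4+, 96.9, 120.0 and 137.4 in lung IL-4+, and 133.8 and 137.6 in lung IFNγ+ libraries. For Stat6 the nearest were Rnaseh2a (0.996), Rack1 (0.994) and Junb (0.991), for Stat5b Ankrd63 (0.993), Bysl (0.993) and Ucp3 (0.991), for Stat3 E2f2 (0.999), Ncln (0.998) and Mrpl58 (0.998), for Stat5a Sfn (0.996), Zfp978 (0.994) and Zfp988 (0.994), and for Stat2 Ctss (0.962), Map2k4 (0.960) and Itpripl2 (0.956). The 7 points of each share library depth and spread class, so these values are descriptions.

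Of the pathway around the STATs, 29 genes with 534 regions were examined in the same way. The 4 Janus kinases, which phosphorylate STATs, had 0 of 143 regions called by limma in any comparison. Over all regions, calls were also few, with 1.05% for lung IL-4+ above and 0.695% below LN IL-4+. They were 2.17% and 0.862% for lung IFNγ+ above and below LN IL-4+, and 0.108% and 0.387% for lung IL-4+ above and below lung IFNγ+. An unadjusted p below 0.05 by limma was found at 29 of the 143 kinase regions for lung IL-4+ above and 2 below LN IL-4+, beside 8.82% and 7.38% of all regions. Lung IFNγ+ was above LN IL-4+ at 3 and below at 9, beside 10.7% and 7.81% of all regions. Lung IL-4+ was above lung IFNγ+ at 29 and below at 1, beside 6.36% and 8.45% of all regions. Jak2, with 46 of these regions, had median differences of 0.92 for lung IL-4+ minus LN IL-4+ and 0.93 for lung IL-4+ minus lung IFNγ+, which share the lung IL-4+ libraries. Of 113 regions at 10 inhibitors, 2 were called. Lung IL-4+ was called above LN IL-4+ at 1 (0.885% against 1.05% of all regions) and below it at 1 (0.885% against 0.695%). Lung IFNγ+ was called below LN IL-4+ at 1 (0.885% against 0.862%) and above it at 0 (2.17% of all regions). At Cish, which encodes a feedback inhibitor induced by STAT5, a region was higher in lung IL-4+ than LN IL-4+ cells by 1.71 (SE 0.25, limma adjusted p = 0.00865), and a region at the phosphatase gene Ptpn11 was lower in both lung populations than in LN IL-4+ cells, with lung IL-4+ given first (-2.65 and -3.68, limma adjusted p = 0.0403 and 0.0121).

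The receptors had 278 of the 534 regions, at 15 genes. Lung IL-4+ was called above LN IL-4+ at 6 (2.16%, against 1.05% of all regions) and below it at 1 (0.360% against 0.695%), and lung IFNγ+ above LN IL-4+ at 6 (2.16% against 2.17%) and below it at 2 (0.719% against 0.862%). Those shared by both lung populations were at Ifnar2, a type I interferon receptor subunit upstream of STAT2 (2.66 and 2.47 above LN IL-4+), and at Il6st, the shared subunit of receptors upstream of STAT3 (-2.01 and -1.98). Lung IFNγ+ was called above lung IL-4+ cells at 4 receptor regions (1.44% against 0.387% of all regions) and below lung IL-4+ cells at 1 (0.360% against 0.108%). All 4 were among the 28 regions of Il12rb2, the subunit through which IL-12 activates STAT4. The largest of these differences had values of 0.30 and 0.67 in LN IL-4+, 1.58, 1.70 and 1.94 in lung IL-4+, and 4.29 and 4.03 in lung IFNγ+ libraries. Lung IFNγ+ was also called above LN IL-4+ cells at 3 of the 28 Il12rb2 regions, beside 2.17% of all regions. The regions chr6:67367104-67367552 and chr6:67375238-67376474 were called in both comparisons, which share the lung IFNγ+ libraries. The other receptor calls were at Il2ra, Il7r and Il10ra, higher in lung IL-4+ than LN IL-4+ cells, at another Il2ra region and at Ifngr2, higher in lung IFNγ+ than LN IL-4+ cells, and at Il6ra, lower there (-2.07). Il10ra also held the only region called higher in lung IL-4+ than lung IFNγ+ cells (1.96, limma adjusted p = 0.0145).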

How the data were processed

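ATAC-seq values of 7 libraries were used, 2 of LN IL-4+, 3 of lung IL-4+ and 2 of lung IFNγ+ cells, grouped by labelled tissue and reporter. Per the submitters' notes and the methods of the study, reads were demultiplexed with bcl2fastq, mapped to GRCm38/mm10 with Bowtie2 2.3.2, peaks were called per replicate with MACS2 2.1.1 and merged, and insertions per region were normalized with limma 3.38.3 in R 3.5.1. The values that the authors deposited are log2 normalized insertions per kb, with replicates in separate columns, all of which were mapped to a sample. Their sorted values nearly coincide between libraries once region length is removed, a step the methods do not name. Depth was rebuilt from values tied to 8 decimals within a library, which gives lower bounds, and duplicates could not be counted.

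Deposited log2 values of all 113820 regions, of 401 bp or more, were fitted with limma 3.58.1 in R 4.3.3 with 1 mean per population, trended eBayes, and Benjamini-Hochberg adjustment within each of 3 contrasts. No pseudocount or filter was used. The fit was tested on simulated data in which 200 regions were changed. The simulated noise was independent between libraries and held no spread classes, so it could not show how the fit handles them. Sums took antilogs times region length and were compared by exact two-sided permutation. Sequences, motifs, sums and plots used Python 3.11.15 with numpy 2.4.6, pandas 2.3.3 and matplotlib 3.10.9. Promoters came from RefSeq (GRCm38.p6), with all 6 genes matched.

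Members and lists were chosen with earlier results of these data known. Regions named were those over the start of each gene or its most accessible, every called region, and the 3 with the smallest p among those not called in each contrast. The Stat4 region over the internal start was added after its values were seen. Genes most alike were the 3 with the highest r among those over 1 Mb from every member. Alternatives were other scalings, filters, thresholds, flanks, blocks and left-out libraries. The values within each spread class were added after seeing the data.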

Additional observations from a re-analysis of the deposited data

How the results depend on the processing

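Of the 5 called differences, the number of 20 other settings in which the call was made was 17 for lung IFNγ+ against LN IL-4+ at the Stat4 intron at 47.8 kb, 16 for the same comparison and 15 for lung IL-4+ against LN IL-4+ at that at 65.8 kb, 14 for Stat3 and 9 for Stat5b, and none changed sign. The count of STAT regions higher in LN IL-4+ than lung IL-4+ cells, and that higher in lung IFNγ+ than lung IL-4+ cells, was 0 in every setting run. Lung IL-4+ above LN IL-4+ was 1 region and became 0 with the replicate block, alone or with a GC correction, and with limma's treat test at a fold of 1.5. It became 2 with the spread class as a covariate, with a minimum fold of 2 and with flanks of 25 kb, and was 0 to 2 with 1 library left out (0 without lung IL-4+ replicate 2, 2 without LN IL-4+ replicate 2). Lung IL-4+ above lung IFNγ+ was 0, became 5 with array weights and 1 with voom on the rebuilt counts, and was 0 to 1 with 1 library left out (1 without lung IL-4+ replicate 1). Lung IFNγ+ above LN IL-4+ was 2, became 1 with the replicate block, 0 with the block and GC correction, and 4 with a minimum fold of 2, and was 0 to 3 with 1 library left out (0 without either lung IFNγ+ library). LN IL-4+ above lung IFNγ+ was 2, became 1 with a pseudocount of 1, quantile normalization or 2 populations per fit, 0 with the replicate block, alone or with the GC correction, and with treat, and 4 with voom on the rebuilt counts. It was 0 to 5 with 1 library left out, with 0 without LN IL-4+ replicate 1 or either lung IFNγ+ library, 1 without lung IL-4+ replicate 2 or 3, and 5 without LN IL-4+ replicate 2. The cause was not tested, beyond the fewer libraries left. Counts over all regions also moved between settings, for lung IL-4+ above lung IFNγ+ from 0 to 3121. The STAT counts under other settings therefore do not show a change particular to STAT regions.

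Whether libraries of the same replicate number came from the same mouse could not be told. Deviations from the population means of same-numbered libraries correlated at -0.54 and -0.30 between LN IL-4+ and lung IL-4+, 0.057 between LN IL-4+ and lung IFNγ+, and -0.015 and -0.014 between the lung populations. These values cannot decide it, since the deviations of 2 libraries in a population are equal and opposite. Each value therefore recurs with its sign changed for a different number. Over all regions, calls for lung IL-4+ above LN IL-4+ were 1191 and 0 to 2436 over the other settings, and 791 and 0 to 1580 in the other direction. For lung IL-4+ above and below lung IFNγ+ they were 123 (0 to 3121) and 441 (0 to 3440), and for lung IFNγ+ above and below LN IL-4+ 2469 (92 to 4575) and 981 (10 to 2796). In depth, the 4 called regions held 55 to 4126 rebuilt insertions per library.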
